A study of Mus musculus with 12 samples.

Results

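The REG (regenerating) family of the mouse pancreas was followed in sorted macrophages of the normal organ and of pancreatic tumors. Its members were taken by gene name from the array design: Reg1, Reg2, Reg3a, Reg3b, Reg3d, Reg3g and Reg4. All 7 had a probe, 1 each, among 27274 genes named by a probe, and 5 of the 7 were bright enough to be tested among 16402 genes. REG proteins are small secreted proteins with a C-type lectin fold. Acinar cells, the exocrine cells that fill most of the pancreas and secrete digestive enzymes, are their main source in that organ, and several members are induced in injured pancreas and in the lining of the gut. Interleukin-6 and interleukin-22, acting through the transcription factor STAT3, are known inducers.

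Each group held 6 single-color arrays, which gave 5 samples because arrays that carry 1 sample name were averaged: normal replicates 2 and 3, and tumor replicates 4 and 6. All mice were labelled female, C57/B6 and 4 to 5 months old, with the genotype not provided. The series design names wild-type, KPC (a genetic mouse model in which pancreatic cancer arises) and FLT3-CRE/LSL-YFP (a lineage-reporter strain) mice, while the protocol speaks of implanted tumors. Which of these gave a sample, and whether animals were pooled, is not stated, and no agent or allele is named for either group. The comparison addresses how expression differs between macrophages of tumor tissue and those of the normal organ. Whether the samples come from different animals is not labelled, so every p-value reflects only how far these samples scatter, and that scatter may be technical. Sorted cells are a bulk sample here: fewer cells of a type and less RNA per cell cannot be told apart.

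All 16 macrophage markers checked were tested, and 0 differed between the groups in limma (adjusted p under 0.05), with a median log2 difference of -0.03. At an unadjusted p under 0.05 there were 2, where 13% of all genes had such a p. Markers of other cells were also present. The 29 tested acinar markers (32 in the list, REG genes not among them) gave 0.722% to 4.58% of total signal over tested genes on normal arrays, against 0.0121% to 0.321% in tumor. Of them 23 fell in tumor, or 79.3%, and the median log2 difference was -5.57 (-5.55 with undetected genes set to their bounds). The part of acinar transcripts in the REG results was not tested beyond the values given below. Arrays detected 39.3% to 58.7% of their probes, and normal replicate 6 was the brightest. Normal replicates 2 and 3 were the dimmest, with 75th percentiles of 398 and 430 against 1091 to 1398 on tumor arrays. Counts of detected arrays therefore compare arrays of unequal brightness. Normal replicate 6 also stood apart among normal samples, with an acinar list mean of 2.71 against 4.85 to 6.72 on the other normal arrays (log2 signal).

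Reg1 carried the clearest difference of the family: it was bright in normal samples and dim or undetected in tumor samples. Reg3d, its relative in the same gene cluster, was lower by a smaller amount that missed the threshold. Reg2, the nearest relative of Reg1, had widely overlapping values in the 2 groups. Reg3g was above background in tumor samples only, and Reg4 in more tumor than normal samples, without either passing the test. Reg3a and Reg3b were near background on most arrays. Of the 5 members tested, 1 fell in tumor in limma and 0 rose, where 0.512% of all tested genes fell and 0.341% rose. At an unadjusted p under 0.05 there were 2 of 5, Reg1 and Reg3d, where 13% of all genes had such a p. In 0 of the 5 were the groups free of overlap, where 1.66% of genes had every tumor sample below every normal one and 1.76% above.

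**Figure D1:**
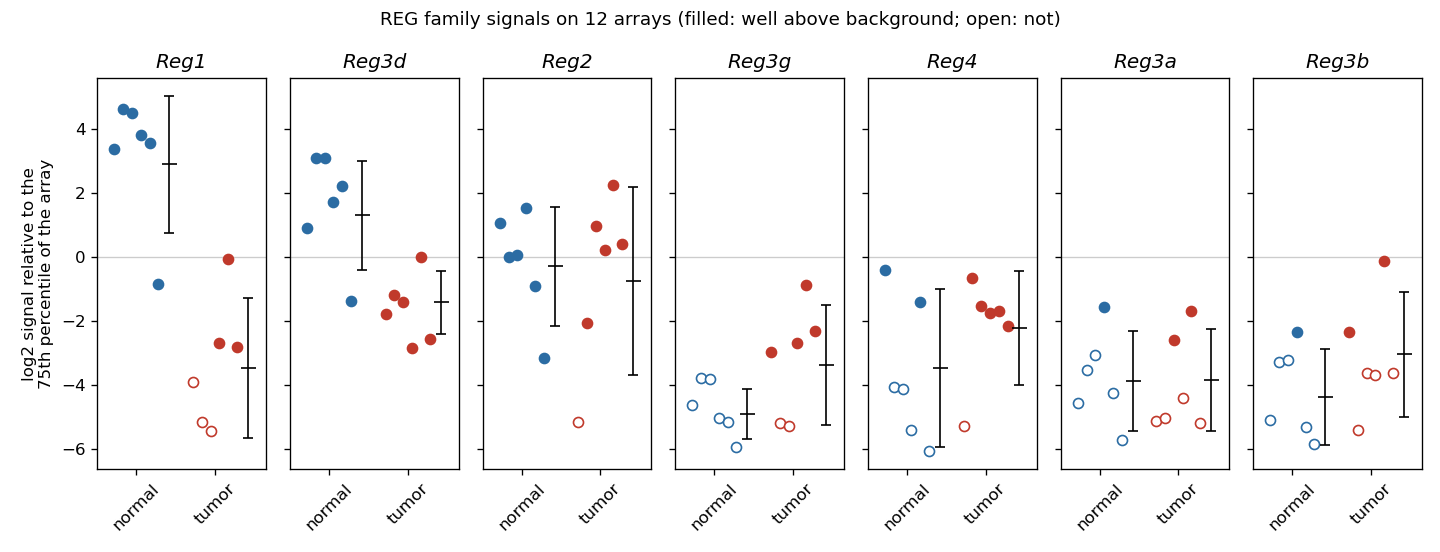
Log2 signal relative to the 75th percentile of the array (vertical axis) for each REG gene on 6 normal (blue) and 6 tumor (red) arrays; filled points are well above background, open points are not, and bars show mean ± SD over 5 samples per group. Reg1 falls from a normal mean of 2.89 to a tumor mean of -3.46, Reg2 spans both groups, and Reg3g has filled points in tumor alone.

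Members are closely related in sequence, so the probes were compared first. Each probe has 60 bases, and the longest run shared by any of the 21 pairs of member probes was 7 bases, the shortest 4. The probes were not compared with the transcripts of the other members, so these short runs do not show that a probe is specific. Signal of a member with another member's probe was not measured directly. The first 30 bases of the probes of the 5 tested members are shown because every value below rests on them.
Reg1: ggaccatctatcaaaagcaaattagatcct
Reg2: acagtactcctttgtctgcaagttcagagc
Reg3d: gtgtattctctggggactctggcctaagga
Reg3g: gagtacagaattgacatcatgggttgatat
Reg4: gcattgcgctgagatgaaccccaaggataa
On the array's own annotation (mm9), 6 of the 7 probes lie on chromosome 6 within 93.2 kb, in the order Reg3b, Reg3d, Reg3a, Reg2, Reg1 and Reg3g, and the Reg4 probe lies on chromosome 3. This annotation gives no exon, intron or UTR. The Reg4 probe is listed from 98037005 to 98040251, a span of 3247 bases for 60 bases of probe, as for a probe that crosses a splice junction.

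Reg1 encodes lithostathine, also called pancreatic stone protein, a major secreted protein of acinar cells. The probe occupies chromosome 6, 78378527 to 78378586 (mm9). Log2 signals, here and below relative to the 75th percentile of each array, were 3.37 in normal replicate 1, 4.57 in the sample of normal replicates 2 and 3, 3.80 in replicate 4, 3.56 in replicate 5 and -0.84 in replicate 6. Tumor samples had -3.90 in replicate 1, -5.16 in replicate 2, -5.43 in replicate 3, -2.74 in the sample of replicates 4 and 6, and -0.06 in replicate 5. Of the normal samples 4 lay far above every tumor sample, while normal replicate 6 lay below tumor replicate 5, so the groups overlapped by this pair. In processed signal, Reg1 ran from 866 to 13423 on normal arrays and from 30.6 to 1197 on tumor arrays.

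Reg1 fell by 6.35 ± 1.19 (log2, SE, 5 samples each), from 2.89 ± 2.13 to -3.46 ± 2.18 (SD; limma adjusted p = 0.0386). All 6 normal arrays but only 3 of the 6 tumor arrays had Reg1 well above background (replicates 4, 5 and 6), so the size of the fall is uncertain and no fold is given. With background corrected by normexp the difference was -3.95 (limma adjusted p = 0.0043). The call rests on few samples: it was lost on leaving out 8 of the 10 samples in turn, with limma adjusted p up to 0.115, although the difference stayed between -7.28 and -5.86. It held without normal replicate 6 (-7.28, limma adjusted p = 0.00642) and without tumor replicate 5 (-7.20, limma adjusted p = 0.0163). Within slides 1, 2 and 3, each with 2 arrays per group, the difference was -8.53, -8.21 and -2.80, and limma passed it on none of them (adjusted p = 0.134, 0.183 and 0.970). Normal replicate 6 and tumor replicate 5, the overlapping pair, both lay on slide 3.

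Reg3d encodes the mouse relative of the islet neogenesis associated protein of hamster. The probe (chromosome 6, 78325868 to 78325927, mm9) was well above background on all 12 arrays. Normal samples had log2 signals of 0.90 (replicate 1), 3.09 (replicates 2 and 3), 1.72 (replicate 4), 2.23 (replicate 5) and -1.38 (replicate 6). Tumor samples had -1.79 (replicate 1), -1.17 (replicate 2), -1.40 (replicate 3), -2.70 (replicates 4 and 6) and -0.0019 (replicate 5). As for Reg1, 4 normal samples lay above every tumor sample and normal replicate 6 lay among the tumor samples. The difference of -2.72 ± 0.77 (log2, SE) missed the threshold over all genes (limma adjusted p = 0.163). Without normal replicate 6 it was -3.40 (limma adjusted p = 0.0211).

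Reg2 encodes a second lithostathine and is the neighbour of Reg1, measured at chromosome 6, 78357959 to 78358018 (mm9). Its log2 signals were 1.05 (replicate 1), 0.03 (replicates 2 and 3), 1.52 (replicate 4), -0.90 (replicate 5) and -3.15 (replicate 6) in normal samples. In tumor samples they were -5.16 (replicate 1), -2.07 (replicate 2), 0.97 (replicate 3), 0.31 (replicates 4 and 6) and 2.27 (replicate 5). The tumor samples held both the lowest and the highest value of all 10, and the highest normal value lay below the highest tumor value. Group means were -0.29 ± 1.85 and -0.74 ± 2.93 (SD), a difference of -0.45 ± 1.34 (SE; limma adjusted p = 0.912). The 95% interval ran from -3.41 to 2.52, so neither a rise nor a fall of several fold is settled by these samples. The sign turned to 0.66 without tumor replicate 1, in which Reg2 was not well above background.

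Reg3g encodes a bactericidal lectin that binds peptidoglycan of the bacterial wall, best known from the gut. The probe occupies chromosome 6, 78416420 to 78416479 (mm9). On the 6 normal arrays it never stood well above background, and log2 signals of the 5 samples ran from -5.91 to -3.80. The highest belongs to normal replicates 2 and 3, the dimmest arrays. There a processed signal of 29.1 (replicate 2) gave -3.78, while 29.4 in normal replicate 4 gave -5.03. Tumor samples had -2.95 (replicate 1), -5.19 (replicate 2), -5.26 (replicate 3), -2.50 (replicates 4 and 6) and -0.88 (replicate 5). It was detected on 4 of 6 tumor arrays, which belong to 3 of the 5 samples, and tumor replicates 2 and 3 lay among the normal values. The measured difference of 1.55 ± 0.80 (log2, SE) missed the threshold (limma adjusted p = 0.451), and no fold is given because the tumor mean lay under the dimmest signals that count as above background. It rested on few samples: it was 0.93 without tumor replicate 5, 0.38 with normexp, and 0.13, 0.45 and 3.93 within slides 1, 2 and 3.

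Reg4, the member outside the cluster, encodes a secreted lectin of the gastrointestinal lining. Its probe (chromosome 3) was detected on 2 of 6 normal and 5 of 6 tumor arrays. Normal samples had -0.40 (replicate 1), -4.08 (replicates 2 and 3), -5.38 (replicate 4), -1.39 (replicate 5) and -6.06 (replicate 6). Tumor samples had -5.26 (replicate 1), -0.65 (replicate 2), -1.52 (replicate 3), -1.95 (replicates 4 and 6) and -1.68 (replicate 5). Apart from tumor replicate 1, the tumor samples lay between -1.95 and -0.65, while normal replicates 1 and 5, the normal arrays with a detected signal, stood well above the other normal samples. The difference was 1.25 ± 1.18 (log2, SE; limma adjusted p = 0.686), and the highest normal sample lay above all tumor samples. It was 0.17 with normexp, -0.73, 3.11 and 1.81 within slides 1, 2 and 3, and 0.60 to 2.02 on leaving out samples in turn (lowest without normal replicate 6, highest without normal replicate 1).

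Reg3b, the pancreatitis-associated protein, and Reg3a, another lectin of this branch, were detected on 1 of 6 normal and 2 of 6 tumor arrays each, too few to be tested. Reg3b signals ran from -5.84 to -2.35 in normal samples and from -5.41 to -0.12 in tumor samples. The highest Reg3b value was in tumor replicate 5, with a processed signal of 1148 against 243 in tumor replicate 1, the next highest array. Reg3a signals ran between -5.70 and -1.56 in normal samples and between -5.12 and -1.67 in tumor, a nearly equal range. Of the 7 members, tumor replicate 5 had the highest tumor value for 6, all but Reg4. The acinar list mean was also highest there among tumor arrays, at 1.30 against -2.84 to 0.52 on the others.

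**Figure D2:**
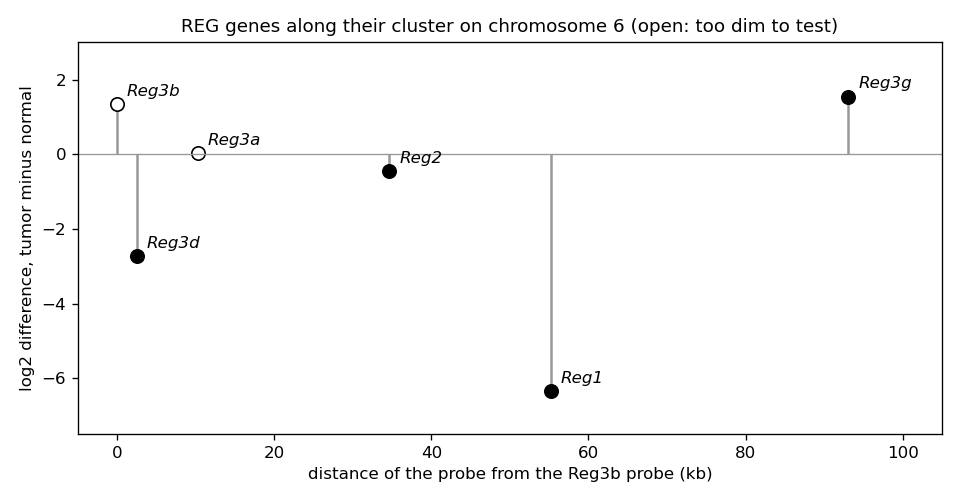
Log2 difference between tumor and normal means (vertical axis) against the distance of each probe from the Reg3b probe on chromosome 6 in kb (horizontal axis); open points are members too dim to be tested. Reg1 at -6.35 lies between Reg2 at -0.45 and Reg3g at 1.55, and Reg3d at -2.72 lies between the untested Reg3b and Reg3a.

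The neighbours Reg1 and Reg2 were also set side by side within each sample, a quantity chosen after their values were seen and so given with no test. The Reg1 and Reg2 probes lie 20568 bases apart. Reg2 minus Reg1 on the same sample was -2.32 in normal replicate 1, -4.54 in replicates 2 and 3, -2.28 in replicate 4, -4.46 in replicate 5 and -2.32 in replicate 6. In tumor samples it was -1.26 in replicate 1, 3.09 in replicate 2, 6.39 in replicate 3, 3.05 in replicates 4 and 6, and 2.33 in replicate 5. Every tumor sample lay above every normal one, by a mean of 5.90. In tumor replicate 1, the lowest of them, neither gene was well above background. In tumor replicates 2 and 3 Reg1 was not well above background either, so these values and the mean of 5.90 are uncertain in size. Relative to Reg1, 99.4% of genes were higher in tumor (exact permutation p under 0.05), so a rise relative to Reg1 is not particular to Reg2. Probes differ in brightness, so the ratio does not show which gene was more abundant.

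The sequence upstream of each start was examined because members of 1 cluster differed in their signals. The 250 bases before the annotated start are shown for the 4 tested members on chromosome 6 (RefSeq, GRCm38.p6), in the direction of the gene. Capitals mark TATAAA (the TATA box), CACCTG (an E-box of the type bound by the acinar factor PTF1) and TTCNNNGAA (a STAT element), searched on both strands.
Reg1: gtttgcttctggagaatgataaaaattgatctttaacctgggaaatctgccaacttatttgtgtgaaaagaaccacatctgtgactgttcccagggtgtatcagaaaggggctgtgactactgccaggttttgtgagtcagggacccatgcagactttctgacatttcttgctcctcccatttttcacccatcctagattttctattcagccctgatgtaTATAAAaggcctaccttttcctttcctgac
Reg2: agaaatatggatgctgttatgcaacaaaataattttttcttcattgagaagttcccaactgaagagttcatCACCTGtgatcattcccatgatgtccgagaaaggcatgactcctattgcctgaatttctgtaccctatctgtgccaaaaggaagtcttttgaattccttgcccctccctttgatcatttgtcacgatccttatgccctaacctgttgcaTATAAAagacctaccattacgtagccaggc
Reg3d: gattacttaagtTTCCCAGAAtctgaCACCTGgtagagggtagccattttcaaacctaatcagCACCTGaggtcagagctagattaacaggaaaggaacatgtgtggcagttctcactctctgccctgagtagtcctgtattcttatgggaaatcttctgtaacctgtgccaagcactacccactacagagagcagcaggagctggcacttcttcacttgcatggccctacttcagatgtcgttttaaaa
Reg3g: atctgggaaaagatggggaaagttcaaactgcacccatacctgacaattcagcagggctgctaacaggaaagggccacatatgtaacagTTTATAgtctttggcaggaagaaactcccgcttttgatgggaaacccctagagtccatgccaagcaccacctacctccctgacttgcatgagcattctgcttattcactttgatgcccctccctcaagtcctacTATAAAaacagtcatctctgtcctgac
These stretches are chr6:78425733-78425982 (plus strand), chr6:78404905-78405154 (plus), chr6:78378866-78379115 (minus) and chr6:78468875-78469124 (minus).

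All 7 members matched an entry of the promoter table. TATAAA stood 30 bases before the start of Reg1 and Reg2, 29 before Reg3b and 27 before Reg3g, 4 of the 7 members, against 12.4% of 32851 windows of 250 bases. A second copy on the opposite strand of Reg3g begins 161 bases before its start. CACCTG was found in 5 members, all but Reg1 and Reg3g, against 17.2% of windows, and stood in 2 copies before Reg3d. The STAT element was found in Reg3b and Reg3d, against 7.0% of windows, and overlaps no other motif searched. Reg3b and Reg3g shared the longest run of any pair, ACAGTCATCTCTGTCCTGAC, the last 20 bases before each start. Members with unlike differences shared motifs: Reg2 and Reg3d both hold CACCTG, and Reg1 and Reg2 both hold TATAAA at the same distance. A match is a description of letters and not a measured site.

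REG signals were next set beside the acinar list mean of the same sample. Each member was expressed as its log2 signal minus that mean, which gives its difference from the digestive-enzyme transcripts. Reg1 minus the acinar mean was -2.20 ± 0.81 in normal and -2.77 ± 1.55 in tumor samples (SD, 5 each), a difference of -0.57 (exact permutation p = 0.484). Only 3 of 6 tumor arrays had Reg1 well above background. The acinar mean also holds Pnliprp2, Cuzd1, Bhlha15 and Serpini2, which no tumor array detected. This difference is therefore uncertain in size and does not show that Reg1 matched the acinar transcripts. The other 4 tested members were higher relative to acinar transcripts in every tumor sample than in every normal one, with exact permutation p of 0.00794 each. These differences were 3.06 for Reg3d and 5.33 for Reg2. For Reg4 and Reg3g the measured values were 7.03 and 7.33, with no order between them, since only 2 and 0 of 6 normal arrays detected these genes and both entered the test through the tumor arrays alone. The p-values are not adjusted for the 5 tests, and 99.5% of all genes were higher and 0.0798% lower on this scale by the same test, so being higher on it is no result about these members. A limma fit on this scale put 99.6% of genes higher and was not used. Reg1 passed as neither higher nor lower, and its sign turned to 0.70 with normexp and to 0.14 with the median of the list. No trait of Reg1 is read from this.

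In normal samples Reg3d followed the acinar mean closely: Reg3d minus that mean lay between -4.09 and -3.54 (SD 0.24), although Reg3d itself had an SD of 1.70. This held for normal replicate 6 too, at -4.09. Tumor samples ran from -3.22 (replicates 4 and 6) to 1.05 (replicate 1), an SD of 1.69. Reg2 minus the acinar mean was spread in both groups, between -6.71 and -3.79 in normal samples and between -2.32 and 1.61 in tumor.

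**Figure D3:**
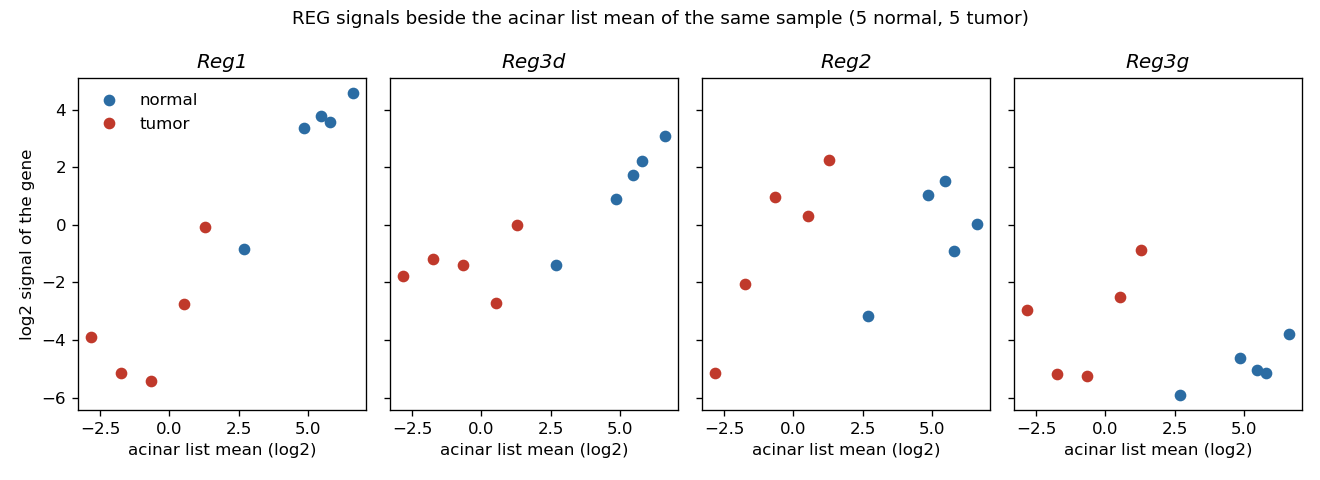
Log2 signal of Reg1, Reg3d, Reg2 and Reg3g (vertical axis) against the mean log2 signal of 29 acinar genes (horizontal axis) in 5 normal (blue) and 5 tumor (red) samples. Normal samples of Reg3d lie along a line with the acinar mean (difference -4.09 to -3.54), and 4 of the 5 tumor samples of Reg2 lie among or above the normal ones at a lower acinar mean.

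The genes with the most similar values over the 10 samples were listed for each member, as a description among 12868 genes (Pearson's r). Both groups entered, so the values share the group difference. The highest of so many correlations over 10 samples can be high without any link, and none was tested. Reg3g and Reg4 were detected on only 0 and 2 of 6 normal arrays, which limits their lists further. Closest to Reg1 were Cldn3, a tight junction protein (0.982), Cbs, cystathionine beta-synthase (0.976), Gp2, the zymogen granule membrane glycoprotein (0.976), Ndufa4l2 (0.975) and Ctrl, a chymotrypsin-like protease (0.975). Closest to Reg3d were Tff2, a trefoil factor of mucus (0.965), Sostdc1 (0.962), Cdc42ep1 (0.961), Cyp39a1, a sterol hydroxylase (0.960), and Sec62, a protein of secretory translocation (0.958). Reg2 was closest to Dusp11 (0.913), F5, coagulation factor V (0.874), Cyp2c55 (0.856), Cspg4, the NG2 proteoglycan (0.849), and Cdh2, N-cadherin (0.834). Reg3g was closest to Snn (0.915), Ly6f (0.912), Cd70 (0.910), Mid2 (0.908) and Mfsd2a (0.904), and Reg4 to Tspan1 (0.882), Stoml2 (0.848), Atr (0.841), Cmss1 (0.832) and Pyroxd1 (0.821). Of the 25 genes named here, Gp2 and Ctrl are the only members of the acinar list.

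Digestive-enzyme transcripts of the acinar list had differences of similar size to Reg1. Rnase1, a ribonuclease, fell by 8.08 ± 0.81 (log2, SE; limma adjusted p = 0.00339), a size that is uncertain because only 1 of 6 tumor arrays detected it. Ctrl and Cela3b, an elastase, both detected on all 12 arrays, fell as well, at -6.36 ± 0.80 and -6.48 ± 0.83 (limma adjusted p = 0.00599 each). Pnliprp2, a lipase relative, fell below detection on all 6 tumor arrays. The Reg1 difference of -6.35 lies within the range of this list. The Reg3d estimate of -2.72 ± 0.77 (log2, SE) lay slightly above that of the least negative member, Rbpjl (-2.99 ± 0.53). Rbpjl, a subunit of PTF1 in acinar cells, was named after its value was seen. The gap between these estimates is smaller than either SE, so whether Reg3d lies outside the range of the list is not settled. Among 12 ductal and epithelial markers 1 fell, Onecut1, a factor of duct development undetected on all 6 tumor arrays, and the median was -0.51. At an unadjusted p under 0.05 there were 3, where 13% of all genes had such a p. Tff2 had a difference of -2.11 ± 0.75 and Muc1, a mucin, -0.87 ± 0.63, and 2 of the 15 listed, Cdh1 and Sox9, were not well above background on any array.

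**Figure D4:**
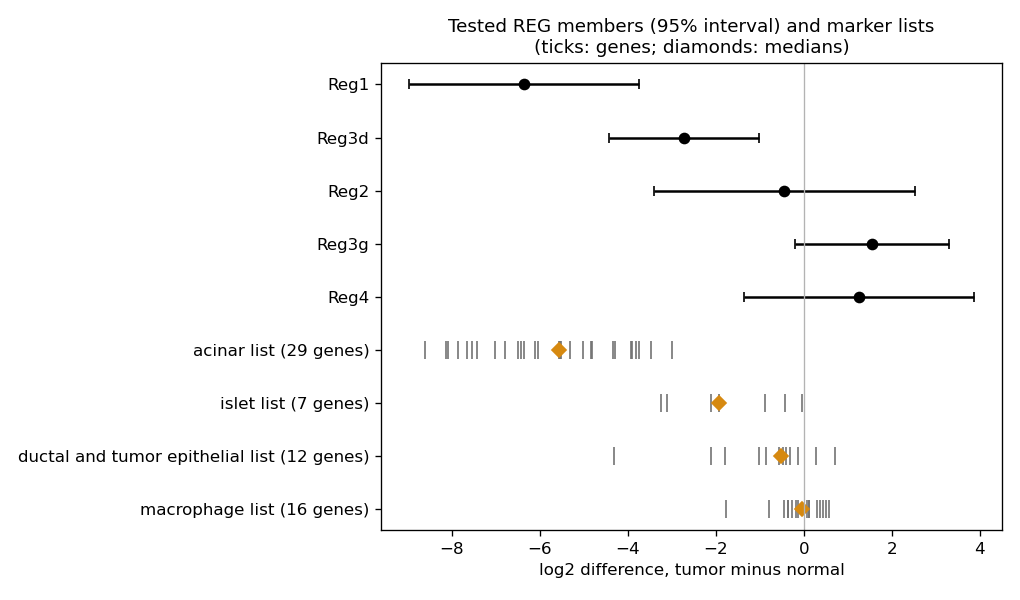
Log2 difference, tumor minus normal (horizontal axis), for the 5 tested REG members with 95% intervals from limma, and for the genes of 4 marker lists (ticks) with their medians (diamonds). Reg1 at -6.35 lies among the acinar genes (median -5.57), and the intervals of Reg2, Reg3g and Reg4 include 0.

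The median over 7 islet markers was -1.94 (-0.88 with bounds), with 0 calls in limma. At an unadjusted p under 0.05 there were 4, where 13% of all genes had such a p. These were Ppy, Ins2, Ins1 and Gcg at -0.88, -3.12, -3.24 and -1.94. Only 2 of 6 tumor arrays detected Gcg, so its size is uncertain. The median over 7 stellate and fibroblast markers was -0.20, with 0 calls in limma and 0 at an unadjusted p under 0.05, with Des, Dcn, Acta2 and Col3a1 at -1.25, -0.65, -0.99 and -0.20. Of 10 neutrophil markers 1 rose in limma, Retnlg (median 1.37, 1.27 with bounds). At an unadjusted p under 0.05 there were 5, Mmp9 at -2.37 among them, where 13% of all genes had such a p. Retnlg was at 4.34 ± 0.78 (limma adjusted p = 0.0338). Only 2 of 6 normal arrays detected it, so it entered the test through the tumor arrays alone and its size is uncertain. S100a8 and Mmp8 were detected on 0 and 1 of 6 normal arrays and on 5 and 4 of 6 tumor arrays, so their measured differences of 2.67 and 2.55 are uncertain in size. Among macrophage markers Cd163, a scavenger receptor, and Adgre1, an adhesion receptor of macrophages, were at -1.77 ± 0.45 and -0.80 ± 0.24, Fcgr1 at 0.58 and C1qc at -0.35. The median over all 16402 genes was -0.0044.

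Cytokines that induce REG genes had mostly positive differences, none past the threshold. Of 11 listed 7 were tested, 6 with a positive difference, and 0 passed in limma (2 at an unadjusted p under 0.05, Tnf and Clcf1; median 0.80). Over all genes 49.6% had a positive difference and 13% an unadjusted p under 0.05. Clcf1 was at 1.73 ± 0.66 (log2, SE), Lif (detected on 1 of 6 normal arrays) at 1.69 ± 0.96 and Il6, interleukin-6, at 1.21 ± 0.81, while Tnf was at -0.90 ± 0.30. Il11, Ctf1 and Il17a were not well above background on any array.

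Of the receptors and Extl3, a membrane glycosyltransferase reported to bind REG proteins, 11 of 14 were tested, 9 with a negative difference, and 0 passed in limma (0 at an unadjusted p under 0.05; median -0.36). Extl3 was well above background on all 12 arrays and had similar levels, 3.24 ± 0.29 in normal and 2.87 ± 0.25 in tumor samples (SD), a difference of -0.37 ± 0.22 (SE; limma adjusted p = 0.511). Il10rb, a chain of the interleukin-22 receptor, was at -0.50, Il17rc at -0.52 and Il6ra, the interleukin-6 receptor, at -0.36. Another probe of Il17rc gave -0.99.

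Of 11 signal transducers tested 10 had a positive difference (49.6% over all genes), with a median of 0.54. In limma 0 passed the threshold, and 4 had an unadjusted p under 0.05 (13% over all genes). Jak2, a kinase of cytokine receptors, was at 1.16 ± 0.37 (log2, SE), Myd88, an adaptor of Toll-like receptors, at 1.21 ± 0.39, Socs1, a feedback inhibitor, at 0.79 ± 0.29 and Cebpb at 0.72 ± 0.32. Stat3 itself was at 0.40 ± 0.20 (limma adjusted p = 0.431); it is named beyond the fixed rule because it links these cytokines to REG genes. Acute-phase and injury-response proteins were divided: of 12 tested 6 were positive and 1 rose, Hp, haptoglobin, by 3.20 ± 0.43 (limma adjusted p = 0.00764). At an unadjusted p under 0.05 there were 3 (13% over all genes). Saa3, an amyloid of acute inflammation, was at 2.15 ± 1.29, Cp, ceruloplasmin, at -0.71 ± 0.28, and Dmbt1, a mucosal defence protein, at -2.02 ± 0.85.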

How the data were processed

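Messenger RNA was measured on 12 Agilent arrays, 6 per group. Per the labels' protocols, total RNA of sorted cells was amplified as cDNA and labelled with Cy5, so folds are of amplified signal. Per the file headers, the deposited intensity values come from Agilent Feature Extraction 11.5.1.1, which removed background and a spatial trend. Log2 values per probe, also deposited by the authors, matched quantile-normalized processed signals (lowest correlation 0.9999), with column medians of 7.08. Spots with outlier flags (0.401%) were left out, and log2 signals were taken relative to the array's 75th percentile. A probe was tested if 3 or more arrays in 1 of the groups had it well above background (22446 of 39429), and a gene is its brightest probe. Names came through RefSeq accessions (28025 probes), current symbols (3413) or synonyms (295) of GRCm38.p6, or were kept as in the file (4985).

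The comparison used limma (version 3.58.1, R 4.3.3), checked on simulated data, with two-sided p-values adjusted by Benjamini-Hochberg across 16402 genes and a threshold of 0.05. A limma fit relative to the acinar mean had been planned. Subtracting 1 mean from every gene gave all genes a common variance, and 99.6% passed as higher, so the exact permutation test over samples was used there. The members, lists and alternatives were chosen with earlier results of these data known. Named genes are all members, the 4 of each list with the smallest p (1 of these is not reported here), and the 5 most correlated genes per member. The arrays lay on 3 slides with 2 arrays of each group, and their number limits the precision.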

Additional observations from a re-analysis of the deposited data

Results flagged for a closer look

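Within groups of 5 samples, 2 of 14 comparisons held a sample far from the others by Dixon's test, where chance gives about 1 in 20. Reg1 in normal replicate 6 was -0.84 against 3.37 in the nearest normal sample, a gap of 0.778 of the range of the group. The same sample had the lowest acinar list mean of the normal arrays. Reg4 in tumor replicate 1 was -5.26 against -1.95 in the nearest tumor sample, a gap of 0.718 of the range, and was not well above background there. Tumor replicate 1 also had the lowest acinar list mean (-2.84) and the lowest Reg2 signal.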

How the results depend on the processing

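Of the REG members, 1 (Reg1) passed in limma. The count was 2 with 12 arrays as separate samples, where 232 of 16402 genes were lower and 228 higher. It was also 2 with normal replicate 6 and tumor replicate 5 left out together (an alternative added after seeing the data). There 103 genes were lower and 67 higher. In both settings Reg3d was the other member. The count ran from 0 to 2 on leaving out samples in turn, and was 0 within slides 1, 2 and 3. At an unadjusted p under 0.05 there were 3, 3 and 2 members within these slides. Of 16402 genes 842, 535 and 449 were lower and 749, 1024 and 503 higher by that p. The count was also 0 when the mean of the acinar list entered the model as a covariate. By unadjusted p there were then 2 members, with 247 genes lower and 236 higher. With that covariate the differences turned to 0.16 ± 1.64 for Reg1, 6.93 ± 1.86 for Reg2 and 0.72 ± 1.39 for Reg3d (log2, SE). Those of Reg3g and Reg4 stayed positive. Every normal array had a higher acinar list mean than every tumor array, so this model cannot separate the group from the acinar mean. Its values are extrapolated, and no conclusion on any member is drawn from them. Reg2 was -4.14, -0.21 and 3.36 within slides 1, 2 and 3, 0.0042 without normal replicate 4 and from -1.20 (without tumor replicate 5) to 0.66 (without tumor replicate 1) over all samples left out in turn, and Reg4 was -0.73 within slide 1 alone.

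Genes higher in tumor numbered 56, and 228 with 12 arrays as separate samples, 97 with normexp and 96 with the filter of all 6 arrays of a group. Genes lower numbered 84, and 232 with 12 arrays as separate samples. Both counts were 0 in limma within each slide and with the covariate, where 236 were higher and 247 lower at an unadjusted p under 0.05. Leaving out samples gave 26 to 79 higher and 33 to 118 lower. Within slides 1, 2 and 3 the counts at an unadjusted p under 0.05 were 749, 1024 and 503 higher and 842, 535 and 449 lower.

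Relative to acinar transcripts, where 99.5% of all genes were higher by the exact permutation test, 4 members were, 4 without each sample in turn and 2 of the 3 tested with the filter of all 6 arrays; with that background these counts say nothing about stability. The Reg1 value there turned to 0.14 with the median of the list and 0.70 with normexp. Reg2 minus Reg1 ran from 4.98 to 6.90 without each sample in turn and was 3.88 with normexp. It was 4.39, 8.00 and 6.15 within slides 1, 2 and 3. Reg1 was not well above background in tumor replicates 1 and 2 (slide 1) and 3 (slide 2), so the values of these slides are uncertain in size. The cause of these changes was not tested. No paired analysis was possible because no label links a normal sample to a tumor sample. In a model that held the slide and the sample name instead, Reg1 was -6.37 (limma adjusted p = 0.0417), and 92 genes were lower and 58 higher. Low signal over background limits Reg3a, Reg3b, Reg3g, Reg4 and the tumor level of Reg1 most.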
